A study of Mus with 21 samples.

Results

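Mouse skin wounds filled with a bFGF hydrogel of pH 6.4 were compared with wounds filled with the same hydrogel at pH 7.4, gene by gene, on Day 4 after wounding. The comparison took in every library that the labels place in the groups 6.4/bFGF and 7.4/bFGF, which was 6 of the 21 libraries, with 3 in each group, and all 18806 genes of the files. The wounds were full-thickness punch wounds of 8 mm on the backs of 8-week-old female wild-type C57BL/6 mice. Both groups received GelMA, a gelatin hydrogel that sets under light, loaded with the same dose of bFGF, so that the pH of the gel was the only labelled difference between them. The other libraries came from control wounds, which got no hydrogel, from 8.4/bFGF, and from the 3 groups with aFGF in place of bFGF. The wounds were held open by a splint sewn to the skin, and each mouse carried 1 on either side of the back. The replicates are labelled as biological, with 3 mice a group in the methods, and neither source says which wound was sequenced or how much muscle and fat from below the skin was taken with it.

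Basic fibroblast growth factor (bFGF, the product of Fgf2) binds FGF receptors together with heparan sulfate on the cell surface and drives fibroblasts, endothelial cells and keratinocytes to divide and migrate. A skin wound of this age is in transition from inflammation to the formation of granulation tissue, with neutrophils and macrophages still present, fibroblasts depositing collagen, new vessels growing in and the epidermis closing over from the edges. Skin is acidic at its surface and close to neutral deeper down, and the pH around a wound acts on enzymes, on matrix proteins and on the binding of growth factors. The paper asked whether the pH of the gel changes how well the growth factors promote repair, and its sequencing analysis concerned aFGF, whereas the values here are those with bFGF.

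The 6 libraries held 34362558 to 37785975 counts each, and 3 counts in a library, the limit that a count of 0 allows, correspond to less than 0.1 CPM (counts scaled to the size of the library after TMM normalization). The library 7.4/bFGF replicate 3 stood apart from its group. Its Pearson correlation with replicates 1 and 2 was 0.932 and 0.924 across 14976 genes on the log2 CPM scale, where these 2 correlated at 0.986 and the 6.4/bFGF libraries among themselves at 0.962 to 0.977. Markers of tissue below the skin went with it. The summed level of 27 skeletal muscle genes was 20099.9, 21413 and 419 CPM in replicates 1, 2 and 3 of 7.4/bFGF and 3838, 2614 and 3728 CPM in those of 6.4/bFGF, with 3782 to 12494 CPM in the control. The 23 adipocyte and lipid synthesis genes summed to 4408, 3709.8 and 26503 CPM in 7.4/bFGF and to 4930.0, 1844 and 2774 CPM in 6.4/bFGF, with 2888 to 28465 CPM in the control. Fat and muscle therefore changed places between libraries of the same group, and values without this library are given below beside the gene groups that moved with it. In tissue measured as a whole, fewer cells of a type and less RNA per cell cannot be told apart.

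With bFGF, no gene passed the edgeR test for a difference between pH 6.4 and pH 7.4, and DESeq2 called a small set. A call needed an adjusted p (Benjamini-Hochberg) under 0.05 in edgeR's quasi-likelihood test together with a log2 fold change of more than 0.58 in size, and 0 of 14976 genes met both (0%), with a smallest adjusted p of 0.420. Before adjustment, 1332 genes (8.89%) had a p under 0.05, of which 732 were higher (4.89%) and 600 lower (4.01%) at pH 6.4. The 2 groups did not overlap, with all libraries of one above all of the other, for 2273 genes (15.2%), of which 1174 were higher (7.84%) and 1099 lower (7.34%). These percentages are the background for the counts of gene groups below. The median log2 fold change over all tested genes was 0.01 and its quartiles were -0.17 and 0.17, so most genes differed little. DESeq2 with default settings called 113 of 17903 genes (0.631%), 33 higher (0.184%) and 80 lower (0.447%). Without 7.4/bFGF replicate 3, edgeR called 278 of 15199 genes (1.83%), 23 higher (0.151%) and 255 lower (1.68%), and 27 of those lower were the 27 skeletal muscle genes. DESeq2 and that fit shared 28 calls, 24.8% of the DESeq2 set and 10.1% of the other. At an unadjusted p under 0.05 that fit had 1101 genes higher (7.24%) and 1197 lower (7.88%). Values of both tools for the genes named below are given side by side where DESeq2 made a call, and a p of single values by exact permutation could not go below 0.1 with 3 libraries against 3.

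Genes named by their p in either direction were drawn only from those whose groups do not overlap, so separation is part of that choice. Among those higher at pH 6.4, the smallest p belonged to Hopx. It is a small homeodomain protein that does not bind DNA and is made by differentiating keratinocytes and by hair follicle stem cells. Its level was 40.3, 44.2 and 41.6 CPM in 6.4/bFGF and 27.8, 27.7 and 27.8 CPM in 7.4/bFGF. The groups were well apart and the 7.4/bFGF libraries nearly equal, with a log2 fold change of 0.61 ± 0.08 (SE) and an adjusted p of 0.420 in edgeR and 1.03e-05 in DESeq2. The control wounds, at 29.0 to 48.8 CPM, ran from close to the neutral group to above the acidic one. Barx2, a homeobox factor of epithelia and muscle, was at 5.15, 7.14 and 4.61 CPM in 6.4/bFGF against 2.25, 2.13 and 2.20 CPM in 7.4/bFGF, a log2 fold change of 1.37 ± 0.24 (adjusted p 0.542 in edgeR and 0.000331 in DESeq2). Lmna, which encodes lamins A and C of the nuclear envelope, was at 497, 591 and 465 CPM against 322, 347 and 334 CPM, a log2 fold change of 0.64 ± 0.12 (adjusted p 0.542 in edgeR and 0.00172 in DESeq2). Both genes had every 6.4/bFGF library above every 7.4/bFGF library.

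The other genes higher at pH 6.4 that are named by their p or by a DESeq2 call have varied functions. Spc24, a kinetochore subunit, stood at 14.9, 12.4 and 14.7 CPM against 6.72, 9.08 and 7.78 CPM, a log2 fold change of 0.85 ± 0.16. Polq, the DNA polymerase of a backup pathway for double-strand break repair, had 5.83, 6.34 and 4.69 CPM against 2.35, 3.20 and 2.37 CPM, and the control lay at 2.56 to 2.78 CPM. DESeq2 called both, at adjusted p-values of 0.00559 and 0.00694. Kpna2, an importin that carries proteins into the nucleus, had a log2 fold change of 0.51 ± 0.10, and its level was 94.1 ± 4.76 CPM (SD over 3 libraries) against 66.8 ± 5.86 CPM. Fscn1, the actin-bundling protein fascin, was at 282 ± 7.77 against 207 ± 11.6 CPM. Panx1, a channel that releases ATP, was at 33.1 ± 2.17 against 22.6 ± 2.15 CPM. Fkbp11, a prolyl isomerase of the secretory pathway, and Selenoh, a nuclear selenoprotein, had log2 fold changes of 0.54 and 0.60. Crip1, Them5 and Bmpr1b, the last a receptor for bone morphogenetic proteins, were DESeq2 calls with edgeR log2 fold changes of 0.89, 1.09 and 1.04. Erfe, the hormone erythroferrone, had the highest fold of these last 4 genes, with an edgeR log2 fold change of 2.13 ± 0.56, and its values were scattered, at 7.41, 12.5 and 4.24 CPM against 1.25, 1.17 and 3.14 CPM.

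Among the genes named as lower at pH 6.4 were 2 that encode matrix proteins. Sned1, a secreted glycoprotein of the extracellular matrix, was at 28.3, 33.7 and 34.4 CPM in 6.4/bFGF and at 67.5, 61.5 and 61.6 CPM in 7.4/bFGF. Its log2 fold change was -0.97 ± 0.10, with an adjusted p of 0.420 in edgeR and 1.05e-09 in DESeq2. Efemp1, or fibulin-3, a glycoprotein associated with elastic fibres and basement membranes, was at 90.9, 73.1 and 78.9 CPM against 179, 202 and 156 CPM. Its log2 fold change was -1.13 ± 0.13 (DESeq2 adjusted p 4.93e-09). Both groups held together tightly for these 2 genes, and 7.4/bFGF replicate 3 lay with its group mates. Ppip5k1, a kinase that makes inositol pyrophosphates, was at 12.0, 10.7 and 12.2 CPM against 23.8, 22.5 and 21.8 CPM, a log2 fold change of -0.95 ± 0.11 (DESeq2 adjusted p 1.89e-09). Of these 3, all were also called without 7.4/bFGF replicate 3, at edgeR adjusted p-values of 0.0195, 0.0118 and 0.0218. Fbxo31, a substrate receptor of a ubiquitin ligase, had a log2 fold change of -0.83.

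**Figure D1:**
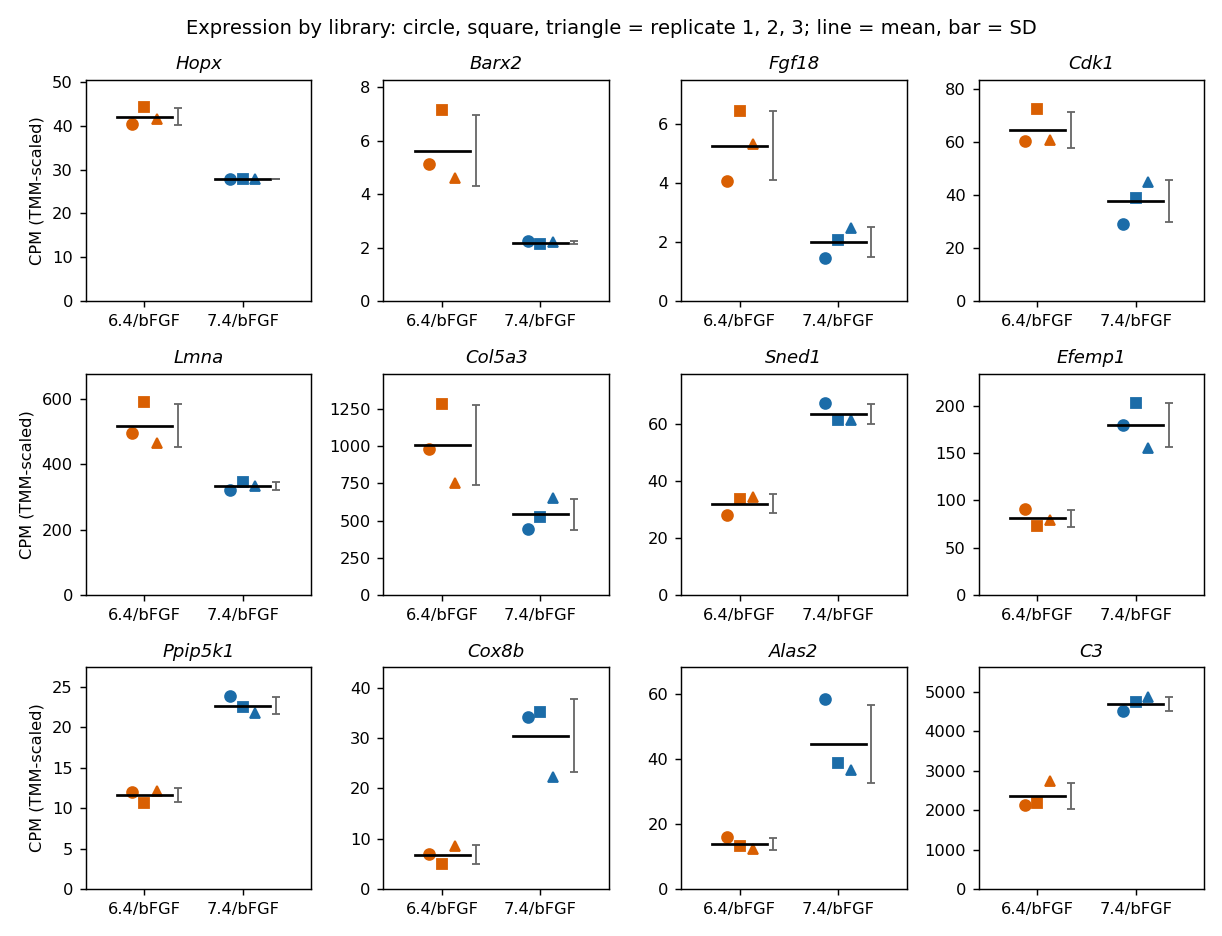
Levels of 12 genes in CPM after TMM scaling, each panel with its own axis from 0. Orange symbols are the 3 libraries of 6.4/bFGF and blue symbols those of 7.4/bFGF, with circle, square and triangle for replicates 1, 2 and 3, a line at the mean and a bar of 1 SD. In all 12 panels the groups do not overlap, which was a condition for the genes named by their p. Hopx in 7.4/bFGF spans only 27.7 to 27.8 CPM.

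The next 6 genes named as lower at pH 6.4 encode proteins of mitochondria. They are described together without a test of mitochondrial genes as a set, and are not all such genes named here. Cox8b, the isoform of a cytochrome c oxidase subunit used in heart, muscle and brown fat, was at 6.85, 5.03 and 8.63 CPM in 6.4/bFGF and at 34.1, 35.2 and 22.2 CPM in 7.4/bFGF, a log2 fold change of -2.14 ± 0.27 (adjusted p 0.420 in edgeR and 5.62e-10 in DESeq2). Crat, carnitine acetyltransferase, was at 68.1, 53.8 and 58.6 CPM against 105, 103 and 114 CPM, a log2 fold change of -0.82 ± 0.12. Pdk4, the kinase that shuts off pyruvate dehydrogenase, was at 24.5, 18.6 and 17.3 CPM against 154, 107 and 52.4 CPM, a log2 fold change of -2.36 ± 0.39. The groups did not overlap for any of the 3, although Pdk4 varied widely in 7.4/bFGF. Mfn2, which fuses mitochondria, and Coq9, needed to make coenzyme Q, had log2 fold changes of -0.64 and -0.68. Idh3a, a subunit of isocitrate dehydrogenase, was at 52.0 ± 4.38 against 78.8 ± 6.88 CPM. DESeq2 called all 6 of these genes lower. 3 more of its calls, chosen after their values were seen, are regulators or carriers of fuel use in muscle and brown fat. Ppargc1a, the coactivator that drives mitochondrial biogenesis, was at 0.368, 0.222 and 0.169 CPM against 2.38, 3.20 and 1.14 CPM. Ucp3, an uncoupling protein of muscle, was at 4.67, 1.61 and 1.38 CPM against 12.9, 15.5 and 13.3 CPM. Slc2a4, the insulin-responsive glucose transporter, had a log2 fold change of -2.08 ± 0.58.

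The respiratory chain itself showed small differences in the same direction. Of 36 tested subunits of oxidative phosphorylation, 28 were lower and 8 higher at pH 6.4, with a median log2 fold change of -0.18, also without 7.4/bFGF replicate 3. An unadjusted p under 0.05 was found for 11 of them, all lower, against 4.01% of all genes, and the groups did not overlap for 18, all lower, against 7.34%. Ndufs1, the largest subunit of complex I, was at 59.2, 60.6 and 66.5 CPM against 86.2, 87.2 and 82.6 CPM, a log2 fold change of -0.45 ± 0.08. Sdha, the flavoprotein of succinate dehydrogenase, was at 188, 176 and 173 CPM against 223, 234 and 276 CPM. The summed level of the list was 4880, 4705 and 5257 CPM in 6.4/bFGF against 5427, 5669 and 5582 CPM in 7.4/bFGF, while the control ranged from 4974 to 6435 CPM. Skeletal muscle and fat are rich in these transcripts, and their markers differed between the libraries as given above. In 7.4/bFGF replicate 3 the summed muscle markers were below every 6.4/bFGF library, and its adipocyte markers were the highest of the 6. Cox8b, Crat, Pdk4 and Ndufs1 were above every 6.4/bFGF library in it. In 7.4/bFGF replicates 1 and 2 the muscle markers were high and the adipocyte markers were within the range of 6.4/bFGF. The part of muscle and fat in these differences was not tested.

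The muscle and fat genes themselves give a picture that depends on 1 library. All 27 skeletal muscle genes were lower at pH 6.4, with a median log2 fold change of -2.13, and in edgeR 0 of them had an unadjusted p under 0.05 and DESeq2 called 0. Without 7.4/bFGF replicate 3 the median was -2.70 and edgeR called all 27 lower. Myh2, a myosin heavy chain of fast fibres, was at 23.5, 17.1 and 15.5 CPM in 6.4/bFGF and at 244, 344 and 1.86 CPM in 7.4/bFGF, so that 2 libraries were far above and the third far below the acidic group. All 22 tested adipocyte genes were lower at pH 6.4 too, with a median of -1.51, but without 7.4/bFGF replicate 3 the median was -0.30 and 6 of 22 were higher. Fasn, fatty acid synthase, stood at 398, 129 and 214 CPM against 402, 402 and 4110 CPM. The 4 adipocyte genes with an unadjusted p under 0.05, against 4.01% of all genes, were Fasn, Me1, Plin4 and Pnpla2. Muscle markers were thus high in replicates 1 and 2 of 7.4/bFGF and fat markers in replicate 3.

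**Figure D2:**
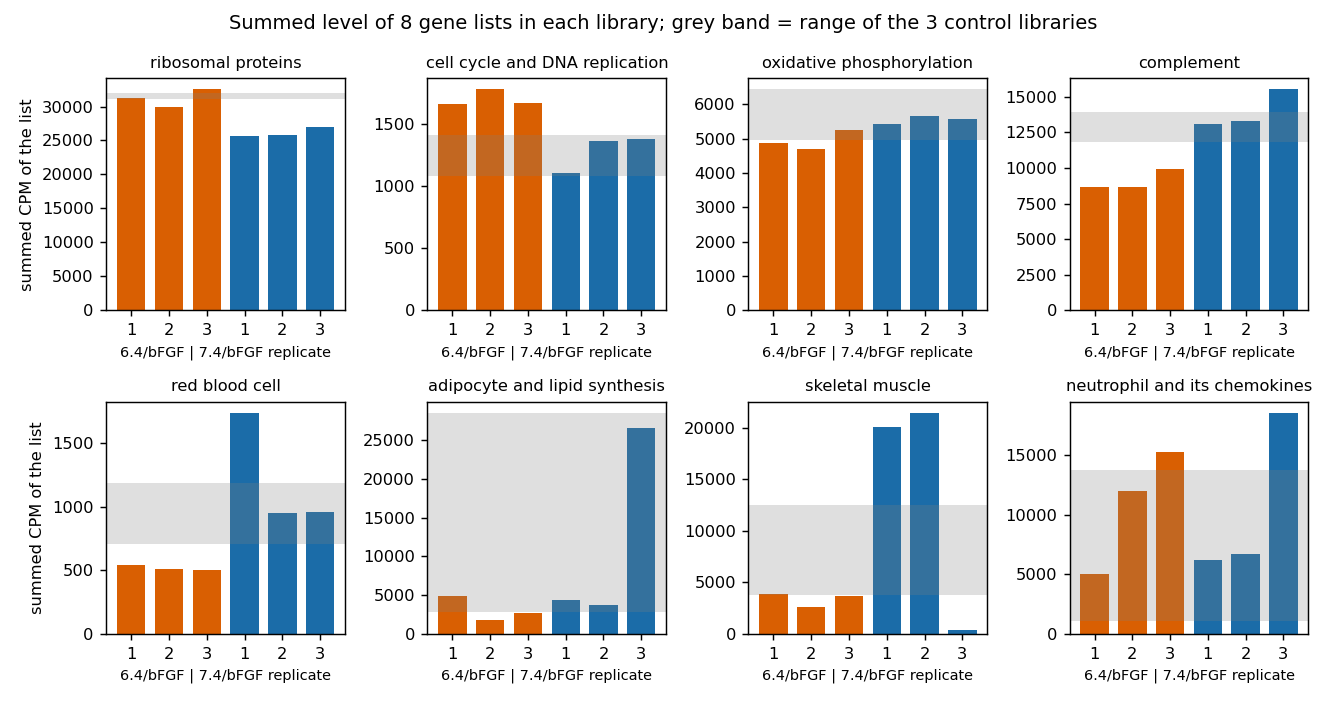
Summed CPM of 8 gene lists in each library, with orange bars for 6.4/bFGF and blue bars for 7.4/bFGF, replicates 1 to 3 from left to right, and a grey band from the lowest to the highest of the 3 control libraries. The muscle bar of 7.4/bFGF replicate 3 is at 419 CPM beside 20099.9 and 21413 CPM in its group mates, whereas ribosomal protein, cell cycle, complement and red blood cell sums separate the groups in all 6 libraries.

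Genes of red blood cells were lower at pH 6.4 as a group. All 9 tested genes were lower, with a median log2 fold change of -1.39, and DESeq2 called 6. An unadjusted p under 0.05 was found for 8 of them, against 4.01% of all genes. The groups did not overlap for all 9, against 7.34%. Alas2, the first enzyme of heme synthesis in the erythroid lineage, was at 16.0, 13.2 and 12.3 CPM in 6.4/bFGF and at 58.7, 38.8 and 36.7 CPM in 7.4/bFGF, a log2 fold change of -1.68 ± 0.21 (adjusted p 0.420 in edgeR and 7.19e-09 in DESeq2). Hbb-bs, an adult beta-globin, was at 265, 269 and 252 CPM against 885, 485 and 488 CPM, and 7.4/bFGF replicate 1 was the highest of the 6. Bpgm, an enzyme whose product tunes how tightly haemoglobin holds oxygen, had a log2 fold change of -0.55 ± 0.11. The sum of the list was 501 to 543 CPM in 6.4/bFGF, below all 3 control libraries at 710 to 1188 CPM, and 948 to 1736 CPM in 7.4/bFGF. Without 7.4/bFGF replicate 3 the median was -1.40 and again 8 of the 9 had an unadjusted p under 0.05, against 7.88% of all genes. Globin genes share reads with near-identical copies, so the split between single globins is uncertain.

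Complement genes were lower at pH 6.4 as well. Of 21 tested components, regulators and receptors, 19 were lower, with a median log2 fold change of -0.34 (-0.35 without 7.4/bFGF replicate 3). An unadjusted p under 0.05 was found for 8, all of them lower, against 4.01% of all genes. The groups did not overlap for 9, all lower, against 7.34%. C3, the component on which all activation pathways meet, was the most abundant and was at 2139, 2178 and 2733 CPM in 6.4/bFGF against 4510, 4737 and 4865 CPM in 7.4/bFGF. Its log2 fold change was -0.99 ± 0.15 (adjusted p 0.542 in edgeR and 1.37e-08 in DESeq2), and the 3 control libraries lay between the groups at 2799 to 3718 CPM. C4b, of the classical and lectin pathways, was at 665, 485 and 643 CPM against 915, 996 and 1147 CPM. C7, part of the membrane attack complex, was low throughout, at 0.764, 1.14 and 1.04 CPM against 5.62, 5.00 and 1.89 CPM. C3, C4b and C7 were among the complement genes that DESeq2 called. C1ra, C1s1, C2 and C6 also had an unadjusted p under 0.05. The summed level was 8666 to 9909 CPM in 6.4/bFGF and 13065 to 15509 CPM in 7.4/bFGF, against 11808 to 13914 CPM in the control.

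Markers of alternatively activated macrophages were mixed, with 10 of 15 tested genes lower and 5 higher at pH 6.4. Mrc1, the mannose receptor that the paper stained for as a marker of such cells, was at 409, 423 and 560 CPM in 6.4/bFGF and at 999, 859 and 627 CPM in 7.4/bFGF. The log2 fold change was -0.82 ± 0.21 (adjusted p 0.542 in edgeR and 0.0317 in DESeq2), and the control was at 694 to 838 CPM. Cd163, the scavenger receptor for haemoglobin bound to haptoglobin, was at 207, 234 and 369 CPM against 751, 653 and 388 CPM (DESeq2 adjusted p 0.0384). Clec10a, Il10 and Retnla were the other 3 of the 5 genes in this list with an unadjusted p under 0.05. All 5 were lower, against 4.01% of all genes. Retnla was at 3.51, 2.67 and 25.3 CPM against 49.8, 67.2 and 28.6 CPM, so its closest libraries nearly met. The 5 higher genes were Arg1, arginase 1, a classical marker of such cells, with a log2 fold change of 0.63, and Ccl24, Ccl17, Ccl22 and Tgfb1, with 0.51, 0.30, 0.22 and 0.21, and each of the 5 had an unadjusted p above 0.05. The median of the list was -0.49, which was -0.57 without 7.4/bFGF replicate 3 and -0.98 without 6.4/bFGF replicate 3. The general macrophage and monocyte list was nearer to even, with a median of -0.07 and 8 of 21 genes higher. The M1-type list had 10 of 14 genes higher with a median of 0.24 and 0 at an unadjusted p under 0.05. Leaving out 7.4/bFGF replicate 3 gave 13 of 14 higher, a median of 0.70 and 6 genes at an unadjusted p under 0.05, all higher, against 7.24% of all genes. Ccr7, stained for as a marker of M1-type cells, was at 10.8, 11.2 and 26.8 CPM against 9.46, 16.0 and 16.1 CPM, with overlapping groups.

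Neutrophil and cytokine genes varied within both groups. The sum of the neutrophil list was 5073, 11963 and 15302 CPM in 6.4/bFGF and 6195, 6721 and 18533 CPM in 7.4/bFGF. Its median log2 fold change was -0.01, or 0.76 without 7.4/bFGF replicate 3. In that fit 7 of 22 genes were higher and 0 lower at an unadjusted p under 0.05, against 7.24% and 7.88% of all genes. Il1b, the interleukin of early inflammation, ran from 447 to 1548 CPM in 6.4/bFGF and from 188 to 979 CPM in 7.4/bFGF. Of 27 inflammatory cytokines and receptors, 23 were higher at pH 6.4 with a median of 0.22, and 1, Il10, had an unadjusted p under 0.05, being lower. The median was 0.49 without 7.4/bFGF replicate 3. At an unadjusted p under 0.05, 9 genes were then higher and 1 lower, against 7.24% and 7.88% of all genes. In that fit edgeR called Il11, an interleukin of the IL-6 family, at a log2 fold change of 2.28 (adjusted p 0.0402). The lists for T and NK cells, B and plasma cells, mast cells and eosinophils had medians from -0.35 to 0.20. Without that library the T and NK cell median was 0.21, the B and plasma cell median -0.11 and the eosinophil median 0.92 over 7 genes. The mast cell median was then 0.16, with 12 of 13 genes higher. An unadjusted p under 0.05 was found for 3, all higher, against 7.24% of all genes.

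Ribosomal protein genes were higher at pH 6.4, by a small amount in nearly every gene. All 44 were higher, with log2 fold changes from 0.20 to 0.37 and a median of 0.27 (0.30 without 7.4/bFGF replicate 3), 33 had an unadjusted p under 0.05 and the groups did not overlap for 43, against 4.89% and 7.84% of all genes in that direction. Rplp0, a protein of the ribosomal stalk often used as a reference gene, was at 1842, 1709 and 1634 CPM in 6.4/bFGF and at 1440, 1436 and 1480 CPM in 7.4/bFGF. Rpl34, of the large subunit, was at 383, 374 and 420 CPM against 305, 293 and 337 CPM, a log2 fold change of 0.35 ± 0.11. The summed level was 31289, 29921 and 32506 CPM against 25591, 25797 and 26930.1 CPM. The control libraries, at 31136 to 32035 CPM, lay within the range of 6.4/bFGF, and all 3 libraries of 7.4/bFGF lay below them. Ribosomal protein genes have many processed pseudogenes, and the levels of single members are uncertain for that reason. Genes measured in the same libraries are not independent of each other.

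Cell division genes were higher at pH 6.4 in every member. All 38 tested genes of the cell cycle and DNA replication had a positive log2 fold change, with a median of 0.45. An unadjusted p under 0.05 was found for 19, against 4.89% of all genes in that direction. The groups did not overlap for 15, against 7.84%. Cdk1, the kinase that drives cells into mitosis, was at 60.5, 72.4 and 60.8 CPM in 6.4/bFGF and at 29.3, 38.9 and 45.0 CPM in 7.4/bFGF, a log2 fold change of 0.79 ± 0.18 (adjusted p 0.542 in edgeR and 0.0317 in DESeq2). Plk1, a mitotic kinase, was at 40.5, 33.2 and 25.4 CPM against 13.4, 19.8 and 22.5 CPM. Bub1b, of the spindle checkpoint, had a log2 fold change of 0.66 ± 0.16. Rrm1, the large subunit of ribonucleotide reductase, which supplies deoxynucleotides, was at 98.9, 117 and 109 CPM against 80.6, 85.9 and 78.7 CPM. Here the control lay with the neutral group. The list summed to 1662, 1778 and 1668 CPM in 6.4/bFGF, above each of the 3 control libraries at 1078 to 1410 CPM, and to 1106, 1359 and 1380 CPM in 7.4/bFGF. The median without 7.4/bFGF replicate 3 was 0.55 and 25 of 38 genes had an unadjusted p under 0.05, against 7.24% of all genes.

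**Figure D3:**
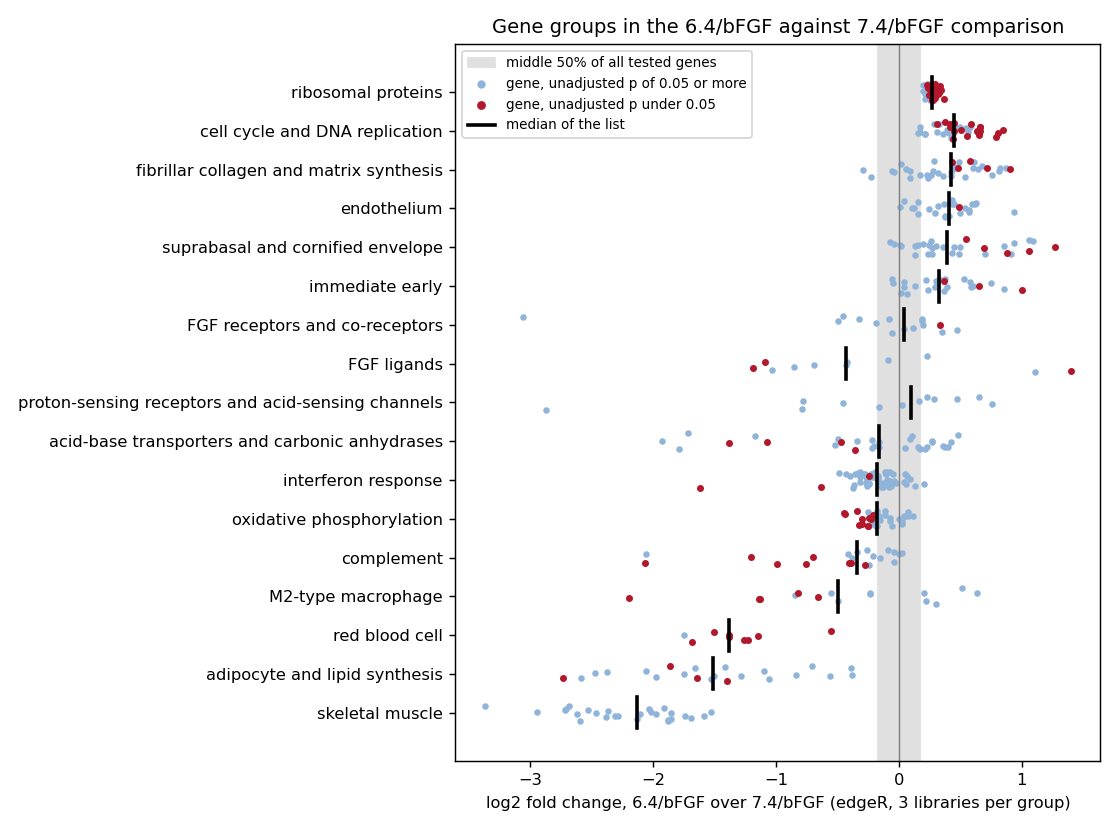
Log2 fold change of 6.4/bFGF over 7.4/bFGF from edgeR for the tested genes of 17 lists, 1 point per gene, red where the unadjusted p was under 0.05, with a black bar at each list's median and a grey band over the middle 50% of all tested genes (-0.17 to 0.17). The ribosomal protein and cell cycle points all lie above 0, the red blood cell, adipocyte and skeletal muscle points all lie below 0, and no gene of any list passed the adjusted threshold.

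Matrix synthesis genes were mostly higher at pH 6.4, and the groups did not overlap for 5 of 35, all higher, against 7.84% of all genes. Of 35 genes for collagens, other matrix proteins and the factors that process them, 31 were higher. The median log2 fold change was 0.42 (0.36 without 7.4/bFGF replicate 3). An unadjusted p under 0.05 was found for 5, all higher, against 4.89% of all genes. These were Col5a3, Plod2, Loxl2, Serpinh1 and P4ha2, the same 5 genes whose groups did not overlap. Col5a3, a chain of type V collagen, was at 978, 1284 and 752 CPM against 443, 526 and 653 CPM, a log2 fold change of 0.91 ± 0.24 (adjusted p 0.542 in edgeR and 0.0466 in DESeq2). Serpinh1, the chaperone that folds procollagen, was at 2631, 2583 and 1860 CPM against 1560, 1783 and 1781 CPM. The main chain of type I collagen, Col1a1, was at 22174, 20309 and 10877 CPM against 10541, 11770 and 12104 CPM, so that 6.4/bFGF replicate 3 lay inside the neutral group. Col3a1 behaved likewise, at 28557, 29372 and 17871 CPM against 17604, 19924 and 19601 CPM. Ccn2, a matricellular protein induced by TGF-beta and by mechanical load, was at 132, 200 and 96.5 CPM against 69.7, 67.1 and 78.6 CPM (DESeq2 adjusted p 0.0439). Tgfb2 had a log2 fold change of 0.79 ± 0.24. Vim, vimentin of mesenchymal cells, was at 2439, 2830 and 2144 CPM against 1555, 1667 and 1916 CPM. Clec3b, or tetranectin, in the fibroblast list, went the other way at 86.8, 80.1 and 50.9 CPM against 197, 188 and 106 CPM. Acta2, the smooth muscle actin that the paper stained for, was at 311, 345 and 159 CPM against 225, 199 and 186 CPM, with overlapping groups and a log2 fold change of 0.44 ± 0.28.

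Endothelial genes shared a direction and were not separated by group. All 25 were higher at pH 6.4, with a median of 0.41, and only Ecscr had an unadjusted p under 0.05. Pecam1, or CD31, the vessel marker that the paper stained for, was at 376, 314 and 196 CPM in 6.4/bFGF and at 205, 160 and 322 CPM in 7.4/bFGF. The high neutral library was again replicate 3, and the median of the list was 0.75 without it. In that fit 9 of the 25 genes were higher at an unadjusted p under 0.05, against 7.24% of all genes. Immediate early genes behaved in the same way, with 23 of 25 higher, a median of 0.33 and 0.67 without that library. An unadjusted p under 0.05 was found for 3 of them, all higher, against 4.89% of all genes. Without that library it was found for 8, all higher, against 7.24%. Apold1, an endothelial immediate early gene named in the paper, was at 20.3, 26.0 and 19.9 CPM against 11.1, 9.79 and 48.2 CPM, so its log2 fold change of -0.06 turned to 1.10 without 7.4/bFGF replicate 3.

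In the epidermis, genes of the upper layers were higher at pH 6.4 while those of the basal layer differed less. Of 30 suprabasal and cornified envelope genes, 28 were higher, with a median of 0.40. An unadjusted p under 0.05 was found for 5, namely Krt1, Ivl, Krtdap, Tgm3 and Hrnr, against 4.89% of all genes. The groups did not overlap for 7, all higher, against 7.84%. Krt1, the keratin of the first suprabasal layers, was at 502, 349 and 364 CPM against 258, 229 and 103 CPM, a log2 fold change of 1.06 ± 0.35. Ivl, involucrin of the cornified envelope, was at 19.4, 14.9 and 8.01 CPM against 7.92, 5.28 and 4.52 CPM, so the nearest libraries were almost equal. Krtdap, a peptide of differentiating keratinocytes, was at 221, 191 and 261 CPM against 154, 152 and 114 CPM (DESeq2 adjusted p 0.0451). The control had 304 to 534 CPM of Krt1 and 180.3 to 250.7 CPM of Krtdap, both near the acidic group. Without 7.4/bFGF replicate 3, which was lowest in Krt1, Ivl and Krtdap, the median of the list was 0.20 and 20 of 30 were higher. The basal keratinocyte list had a median of 0.11, or -0.03 without that library, and the wound-edge list, with Krt6a, Krt16 and Krt17 among its genes, had 0.28. Melanocyte genes were mixed, with 3 of 4 tested genes higher and Mitf lower, at a log2 fold change of -0.41. Dct and Pmel of pigment synthesis were higher at an unadjusted p under 0.05, against 4.89% of all genes. Dct was at 5.29, 2.78 and 4.66 against 1.81, 2.16 and 1.20 CPM. Without 7.4/bFGF replicate 3, 1 gene was higher and 1 lower at such a p, against 7.24% and 7.88% of all genes. The summed level of the list overlapped, at 31.3 to 36.5 CPM against 27.7 to 44.0 CPM.

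The FGF system itself differed in a few ligands and hardly in its receptors. Fgf18, a ligand of hair follicles and cartilage, was at 4.07, 6.42 and 5.31 CPM in 6.4/bFGF and at 1.46, 2.08 and 2.49 CPM in 7.4/bFGF, a log2 fold change of 1.40 ± 0.30 (adjusted p 0.542 in edgeR and 0.00617 in DESeq2). Fgf1, the endogenous gene of aFGF, was at 6.00, 5.00 and 5.84 CPM against 15.9, 16.9 and 6.00 CPM. The 2 high libraries of Fgf1 were those with high muscle markers, and the third was level with the acidic group. Fgf2 itself, which reads the tissue's own transcript and not the protein in the gel, was at 3.82, 2.72 and 4.81 CPM against 5.06, 4.66 and 5.69 CPM, with overlapping groups and a log2 fold change of -0.43 ± 0.26. Of 11 tested ligands, 3 were higher and 8 lower, and those with an unadjusted p under 0.05 were Fgf18, Fgf1 and Fgf13. That was 1 higher and 2 lower, against 4.89% and 4.01% of all genes. Fgf10, a mesenchymal ligand for the epithelial receptor, was at 3.03 to 5.97 CPM against 3.25 to 17.6 CPM, the highest being 7.4/bFGF replicate 3.

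Fgfr1, the main FGF receptor of fibroblasts and endothelium, was at 327, 289 and 241 CPM in 6.4/bFGF and at 289, 300 and 251 CPM in 7.4/bFGF, with a log2 fold change of 0.04 ± 0.14. Per transcript length it was by far the most abundant of the 4 receptors, at 56.4 and 56.0 FPKM in the 2 groups, where Fgfr2 had 2.38 and 3.32 FPKM, Fgfr3 2.95 and 2.38 FPKM and Fgfr4 0.445 and 0.427 FPKM. None of the 4, named here after their values were seen, separated the groups. Sdc1, or syndecan-1, a heparan sulfate carrier that helps FGFs bind, was at 353, 336 and 343 CPM against 287, 279 and 258 CPM, and was the 1 gene of 15 receptors and co-receptors with an unadjusted p under 0.05. Targets and feedback inhibitors of the ERK pathway, which FGF receptors switch on, had 17 of 20 genes higher with a median of 0.18. When 7.4/bFGF replicate 3 was left out the median was 0.28. In that fit 4 genes were higher and 1 lower at an unadjusted p under 0.05, against 7.24% and 7.88% of all genes. Myc was higher at 40.3, 42.5 and 49.5 CPM against 29.4, 30.0 and 39.8 CPM, and Etv1, an ETS factor, was lower at 10.8, 10.1 and 11.2 CPM against 14.0, 13.5 and 13.3 CPM. With all 6 libraries these were the 2 genes of that list with an unadjusted p under 0.05.

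Genes that sense acid had no shared direction, and the acid-base transporters with an unadjusted p under 0.05 were lower at pH 6.4. Of 12 tested proton-sensing receptors and acid-sensing channels, 7 were higher and 5 lower, with log2 fold changes from -2.87 to 0.76 and a median of 0.10, and 0 had an unadjusted p under 0.05. The median was 0.08 without 7.4/bFGF replicate 3. At an unadjusted p under 0.05, 2 of 13 were then lower, against 7.88% of all genes. With all 6 libraries Trpv1 had the smallest p of that list, at a log2 fold change of -2.87. It was at 4.72 CPM in 7.4/bFGF replicate 3 and at no more than 0.468 CPM in any other of the 6. Trpv4, a channel of keratinocytes and vessels, had the next smallest p, at 18.2, 16.8 and 21.4 CPM against 29.1, 31.0 and 18.2 CPM. Of 31 acid-base transporters and carbonic anhydrases, 15 were higher and 16 lower, with log2 fold changes from -1.92 to 0.49 and a median of -0.16. The 4 with an unadjusted p under 0.05 were all lower, against 4.01% of all genes. They included Slc4a1, the anion exchanger of red blood cells, Slc16a7, a monocarboxylate carrier, and Car8. Slc16a7 was at 9.87, 10.3 and 10.1 CPM against 14.5, 11.9 and 12.8 CPM. Car3, a carbonic anhydrase of fat and muscle, was the most abundant, at 802, 158 and 213 CPM against 824, 823 and 2218 CPM, a log2 fold change of -1.71. The 32 transporters and carbonic anhydrases tested without 7.4/bFGF replicate 3 had a median of -0.01. At an unadjusted p under 0.05, 7 were lower and 2 higher, against 7.88% and 7.24% of all genes. In that fit edgeR called Car14, another carbonic anhydrase, at a log2 fold change of -2.28 (adjusted p 0.0488). Of 32 hypoxia and glycolysis genes, 18 were higher, with a median of 0.03, and without that library 20 were higher, with a median of 0.21.

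Of 61 tested interferon-response genes, 54 were lower at pH 6.4, with a median of -0.18 (-0.12 without 7.4/bFGF replicate 3). An unadjusted p under 0.05 was found for 3 and no overlap between the groups for 5, all lower, which is near the 4.01% and 7.34% of all genes, so no difference of the list was shown. The 3 were F830016B08Rik, Ifi27l2a and Stat2. F830016B08Rik, a gene named in the paper, was at 4.33, 2.92 and 2.19 CPM against 13.2, 8.85 and 7.15 CPM, a log2 fold change of -1.61 ± 0.34 (adjusted p 0.542 in edgeR and 0.00304 in DESeq2). Of the other genes that the paper named, Tnfsf14, a TNF family cytokine also called LIGHT, was at 14.3, 21.8 and 35.0 CPM against 53.2, 46.6 and 31.0 CPM, with a log2 fold change of -0.86 ± 0.35 and overlapping groups. Il15, Oas3, Rnf213 and Gm12185 had log2 fold changes of 0.21, -0.24, -0.17 and -0.37, and the groups overlapped for all 4. Epx, the eosinophil peroxidase, was below the limit that a count of 0 allows in these libraries and was not tested.

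The same change of pH was made with aFGF in 6 further libraries, and the interaction compares the pH difference with bFGF with that with aFGF. In edgeR's quasi-likelihood test over the 12 libraries, 0 of 15449 genes were called for the interaction, the smallest adjusted p was 0.765, and 941 genes (6.09%) had an unadjusted p under 0.05, 362 with a larger log2 fold change with bFGF (2.34%) and 579 with a smaller one (3.75%). DESeq2 called 28 of 18381 genes (0.152%), 5 of the first kind (0.0272%) and 23 of the second (0.125%). Those 23 include 6 of the genes described above, namely Crat, Ppip5k1, Alas2, Idh3a, Ndufs1 and Sdha, together with Fech, the last enzyme of heme synthesis. Crat had log2 fold changes of -0.82 with bFGF and 0.24 with aFGF (interaction -1.05 ± 0.17, edgeR adjusted p 0.765 and DESeq2 adjusted p 0.000246). Alas2 had -1.68 with bFGF and 0.54 with aFGF. Barx2, at 1.37 with bFGF and -0.12 with aFGF, was among the 5 called in the other direction (DESeq2 adjusted p 0.0116).

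By gene group, the interferon, adipocyte, respiratory chain and red blood cell lists held the most genes with an interaction at an unadjusted p under 0.05. The red blood cell list had a median of -1.39 with bFGF and 0.50 with aFGF, and 7 of its 9 genes had an interaction at an unadjusted p under 0.05. All 36 respiratory chain genes were higher at pH 6.4 with aFGF, with a median of 0.17 against -0.18 with bFGF, and 11 had such an interaction, or 7 without 7.4/aFGF replicate 1 (3.01% of all genes). For the adipocyte list the medians were -1.51 and 0.74, and 14 of 23 genes had such an interaction, or 2 of 23 without 7.4/bFGF replicate 3, where 4.22% of all genes had an interaction of that sign. The interferon list ran the other way, with -0.18 with bFGF and -1.10 with aFGF. The groups did not overlap for 25 of its 61 genes with aFGF, all lower at pH 6.4 (5.73% of all genes), and 16 of its genes had an interaction with a positive sign and 1 with a negative sign. The library 7.4/aFGF replicate 1 stood apart here. Its interferon response list summed to 12097 CPM, against 5957 and 6513 CPM in its group mates and 3121 to 4764 CPM in 6.4/aFGF. Its T and NK cell list summed to 485 CPM, against 113 and 101 CPM, and its dendritic and antigen presentation list to 11587 CPM, against 3316 and 3681 CPM. With aFGF the T and NK cell list had a median of -1.57 with 1 of 22 genes higher, and the dendritic list a median of -0.66. Without this library the medians with aFGF were -0.72 for the interferon list, 0.06 for the T and NK cell list and -0.19 for the dendritic list. With aFGF, 20 of 61 interferon genes were then lower at an unadjusted p under 0.05, beside 203 of all 15257 genes. In that setting 4 interferon genes had an interaction with a positive sign, against 1.88% of all genes, and 1 with a negative sign. Without 7.4/bFGF replicate 3 instead, 24 had a positive sign, beside 460 of all 15669 genes, and 0 a negative sign. Over all 12 libraries, complement had 5 genes of 21 with an interaction at an unadjusted p under 0.05, C3, C4b, C6 and Cfd among them. All 5 had a negative sign, against 3.75% of all genes. Without 7.4/aFGF replicate 1 there were also 5 with a negative sign, against 3.01%. The ribosomal protein list had medians of 0.27 and 0.10, and the cell cycle list 0.45 and 0.13, with 0 and 1 genes at an unadjusted interaction p under 0.05. With aFGF the groups did not overlap for 3 genes of either list, all higher (5.31% of all genes), beside 43 and 15 with bFGF (7.84%). The interaction had medians of 0.17 and 0.34. Without 7.4/aFGF replicate 1 it was positive for all 44 and all 38 genes, and without 7.4/bFGF replicate 3 for 44 and 33. Whether these lists as a whole differed between growth factors was not tested. Matrix synthesis and endothelial lists had similar medians with both growth factors, at 0.42 and 0.33 and at 0.41 and 0.34. This does not show that the growth factors acted alike.

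**Figure D4:**
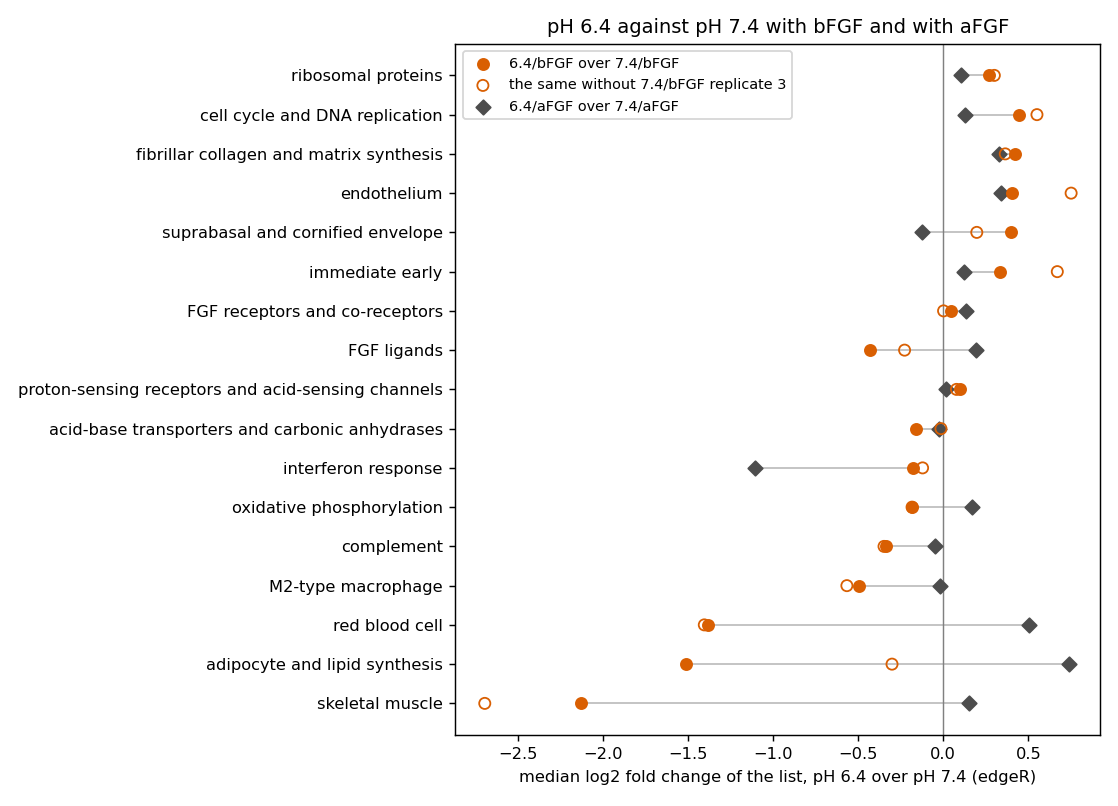
Median log2 fold change of pH 6.4 over pH 7.4 for 17 gene lists, with filled orange circles for bFGF, open circles for bFGF without 7.4/bFGF replicate 3 and grey diamonds for aFGF, from edgeR fits of 3 libraries per group. The red blood cell median is at -1.39 with bFGF, -1.40 without that library and 0.50 with aFGF, and the adipocyte median is at -1.51 with all 6 libraries and at -0.30 without that library.

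The alkaline gel with bFGF was compared with the same 7.4/bFGF libraries, so both comparisons share these reference libraries and are set side by side only. The cell cycle list had 38 of 38 genes higher at pH 8.4 than at pH 7.4, with a median of 0.34, beside 0.45 at pH 6.4, and the groups did not overlap for 3 of them beside 15 (5.17% of all genes were higher at pH 8.4 without overlap). The red blood cell list had a median of -0.75 at pH 8.4 beside -1.39 at pH 6.4, the complement list -0.26 beside -0.34 with 4 of 21 genes lower without overlap (6.55% of all genes), and the ribosomal protein list 0.15 beside 0.27. C3 was at 2726 ± 1078 CPM in 8.4/bFGF, between the control at 3241 ± 461 CPM and 6.4/bFGF at 2350.0 ± 332 CPM, and Hopx was at 37.8 ± 4.18 CPM. The 8.4/bFGF libraries scattered more than those of 6.4/bFGF for both genes. Fgf1, at 12.4 ± 6.84 CPM, was near the level of 7.4/bFGF, with a log2 fold change of -0.05 for pH 8.4 over pH 7.4.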

How the data were processed

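RNA from wounds of 7 groups was made into 21 libraries with a stranded mRNA kit. Per gene and library, the files deposited by the authors give raw counts and FPKM, and the counts were checked to give the FPKM values with 1 fixed length per gene (13699 genes). The submitters' processing notes name the build GRCm39, and the aligner, the counter and its strand setting are not given in the sources used here. Antisense and overlapping genes are uncertain for that reason. A RefSeq table of GRCm38.p6 held 18662 of the 18806 symbols (99.2%) and served for names only, so no coordinates or sequences are given. Total counts were 34362558 to 37817833 per library, and limits from counts cover counting error only.

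Genes were compared in edgeR 4.0.16 under R 4.3.3 (TMM scaling, default filter on low counts, quasi-likelihood test on the 6 libraries, prior count of 2). Levels in CPM use TMM factors over all 21 libraries. The paper names no test for the sequencing, and the thresholds (adjusted p of 0.05, log2 fold change of 0.58) are those of its volcano plot. Alternatives were DESeq2 1.42.0, limma 3.58.1 on log2 FPKM, other scalings, filters and fits, a replicate block and leaving out each library, with list counts without 7.4/bFGF replicate 3 and without 7.4/aFGF replicate 1 chosen once the data were known. The scripts were tested on simulated counts.

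The comparison and the 51 gene lists were chosen with earlier results of these data known. Named genes were those of the paper, up to 15 in each direction with the smallest p in edgeR at 1 CPM or more and groups that do not overlap, up to 4 by p and 2 by level from each list, and the first calls of DESeq2, of the fit without 1 library and of the interaction. Genes named outside this rule were Il11, Car14, Ppargc1a, Ucp3, Slc2a4, Retnla, Fgf10, the 4 FGF receptors and members of short counts, chosen after their values were seen. Some genes that the rule named are not reported here.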

Additional observations from a re-analysis of the deposited data

How the results depend on the processing

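DESeq2 called 113 genes in 6.4/bFGF against 7.4/bFGF with default settings and 98 (21 higher, 77 lower) with Cook's cutoff and independent filtering switched off, where edgeR called 0, and it called 28 for the interaction where edgeR called 0. Leaving out each library gave 0 to 278 calls and 686 to 2298 genes at an unadjusted p under 0.05, the 278 without 7.4/bFGF replicate 3 and the lowest, 686, without 6.4/bFGF replicate 2. RLE scaling, other filters, a robust fit, all 21 libraries, no fold threshold and limma on log2 FPKM gave 0 calls. With the replicate number as a block there were also 0 calls, for the interaction too, and 1108 genes at an unadjusted p under 0.05. The deviations of same-numbered libraries correlated at 0.138, 0.0148 and 0.0633, so the numbers were not taken to pair the libraries, although every library correlated best with its own number, a hint from the data and not from the design. Of the genes named in the text, 131 were refitted. The log2 fold change of Apold1 turned to 0.38 with the block and to 0.23 and 0.30 with limma on log2(FPKM + 1) and log2(FPKM + 0.1). Leaving out 1 library changed the sign for Apold1 (-0.42 to 1.10), Il15 (-0.17 to 0.48), Gm12185 (-1.09 to 0.048), Ccr7 (-0.32 to 0.46), Fgf10 (-1.42 to 0.13), Fgfr1 (-0.072 to 0.15), Fgfr2 (-1.06 to 0.31) and Fgfr4 (-0.37 to 0.74), and for no other refitted gene. Under RLE scaling all 51 list medians moved by less than the spread between libraries, and the scalings and filters moved the median of all genes by at most 0.03. Without 7.4/bFGF replicate 3, 12 of 51 list medians moved by more, and without 6.4/bFGF replicate 3, 10 did. Depth limits genes below about 1 CPM, such as Ppargc1a in 6.4/bFGF. A p that misses the threshold does not show that levels were equal.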

Other observations

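Schwann cell and nerve genes, which take no part in the comparisons above, were mostly lower at pH 6.4, with 13 of 15 lower and a median log2 fold change of -0.37, or -0.53 without 7.4/bFGF replicate 3. An unadjusted p under 0.05 in edgeR was found for 2, all lower, against 4.01% of all genes. They were Scn7a, a sodium channel of glia and muscle, at -1.03, and Pmp22, a protein of peripheral myelin, at -0.37. Wnt genes had 28 of 38 higher with a median of 0.14, and heat shock and unfolded protein response genes had 18 of 24 higher with a median of 0.09. TGF-beta and BMP, VEGF and angiopoietin, EGF receptor and TNF superfamily lists had medians from -0.02 to 0.09. The medians without 7.4/bFGF replicate 3 were 0.08 for the Wnt list, 0.18 for the heat shock list and 0.10 to 0.21 for these 4 lists.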
